A study of Mus with 15 samples.

Results

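Efferocytosis, the engulfment of dying cells by phagocytes, and the uptake of modified lipids and debris by scavenger receptors were described here through 10 genes. The genes were taken by symbol from the deposited count matrix and are Gas6, Pros1, Mfge8, Mertk, Axl, Stab1, Msr1, Marco, Cd68 and Adgre1. They are 10 of the 55471 genes of the matrix, and all 10 passed the filter on low counts that left 16051 genes for testing. Their RNA was measured by sequencing of mouse fat, with 5 samples each of fat grafts at day 7, fat grafts at day 3 and control adipose tissue. All samples came from wild type C57BL/6 mice, with an age of 7 weeks in the labels. The labels give neither the donor depot, the graft site, the host nor any treatment, and they do not say whether the 5 samples of a group came from separate animals, so the p-values measure the spread between these samples.

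Dying cells show phosphatidylserine on their surface. Soluble bridging proteins bind it: Gas6 and protein S (Pros1) link it to the TAM family of receptor tyrosine kinases (Tyro3, Axl and Mertk), and milk fat globule protein Mfge8 links it to integrins. Scavenger receptors such as Stab1, Msr1 and Marco bind phosphatidylserine, modified lipoproteins or microbes directly, and in adipose tissue macrophages use such routes to clear dead adipocytes and their lipid.

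Total estimated counts were 20.2 to 32 M per sample in day 7 grafts, 23.7 to 29.4 M in day 3 grafts and 17.1 to 31.8 M in controls. On a principal component analysis of the 500 most variable genes, the second component (7.1% of the variance) placed day 7 graft 5 and day 3 graft 1 between the other grafts of the 2 times, so results that rest on them are also given without them. Of 12 macrophage and monocyte markers, 11 passed the test as higher in both graft groups than in control. Their summed CPM, which is a count scaled to a fixed library size, was 10620 to 13060 in day 7 grafts, 5304 to 12150 in day 3 grafts and 1546 to 4090 in controls, and none of the 12 was at 0 in any group. Of that sum, Lyz2 alone had a mean of 6422 CPM in day 7 grafts and 3501 CPM in day 3 grafts. The mean log2(CPM + 1) of the 12 was 8.62 at day 7, 8.64 at day 3 and 6.19 in control. None of the 12 passed between day 7 and day 3. In such bulk samples, more cells of a type and more RNA per cell cannot be told apart. All 7 adipocyte markers fell in both graft groups, with a summed CPM of 210.2 to 487.6 in day 7 grafts, 849.8 to 2888 in day 3 grafts and 9546 to 27550 in controls; adipocyte RNA was thus plain in controls and low in grafts. Neutrophil markers (5 of 7 higher in each graft group), fibroblast markers (5 of 7 higher and 1 lower at day 7, 4 higher at day 3) and endothelial markers (4 of 6 higher at day 7, 5 at day 3) also moved. Dendritic cell markers (5 of 6 lower), B cell markers (5 of 5 lower) and T cell markers (5 of 5 lower) fell in both graft groups. The mean log2(CPM + 1) of 6 skeletal muscle markers was 0.273 to 5.30 in day 7 grafts, 0.381 to 5.24 in day 3 grafts and 1.89 to 8.53 in controls. Day 3 graft 1 held the 5.24, against 0.381 to 0.863 in the other day 3 grafts. It also had the lowest endothelial and adipocyte scores of the day 3 grafts (5.95 and 6.24). The part of each of these lists in the results below was not tested.

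At day 7, 8 of the 10 genes were higher than in control and none was lower. Cd68, Adgre1 and Msr1 stood 11.2-fold to 13.7-fold higher in the fit, and Stab1 7.12-fold. The receptors Mertk and Axl and the ligands Gas6 and Pros1 were 2.38-fold to 3.43-fold higher. At day 3, 7 genes were higher than in control and Marco alone was lower, while Gas6 and Mfge8 did not pass. Between day 7 and day 3 no gene passed.

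These counts stand beside broad differences between grafts and control. At an adjusted p under 0.05 (limma-voom with Benjamini-Hochberg adjustment over 16051 genes), 60.7% of all tested genes were called at day 7 against control, 32.3% as higher and 28.4% as lower, and 42.5% had groups that did not overlap, which held for 8 of the 10 genes here. For day 3 against control the shares were 60.3% called, 30.1% higher and 30.2% lower, with 40.4% not overlapping, which again held for 8 of the 10. Day 7 against day 3 called 4.88% of all genes and none of the 10, groups did not overlap for 7.89% of all genes and for none of the 10, and 3 of the 10 had an unadjusted p under 0.05 (Gas6, Mfge8 and Marco), beside 20.2% of all genes. With limma-trend the count of the 10 was 1 on the TPM scale and 0 on the CPM scale. The median log2 fold change of the 10 genes was 1.73 at day 7 and 1.58 at day 3 against control, beside 0.0311 and -0.014 over all tested genes. Both graft comparisons use the same 5 controls, so their likeness is not independent. On the scale of the deposited TPM, which also divides by transcript length, 74.1% of calls at day 7 and 68.0% at day 3 were higher, against 53.2% and 50.0% in the fit on counts, and the median of all genes stood at 0.334 and 0.216.

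**Figure D1:**
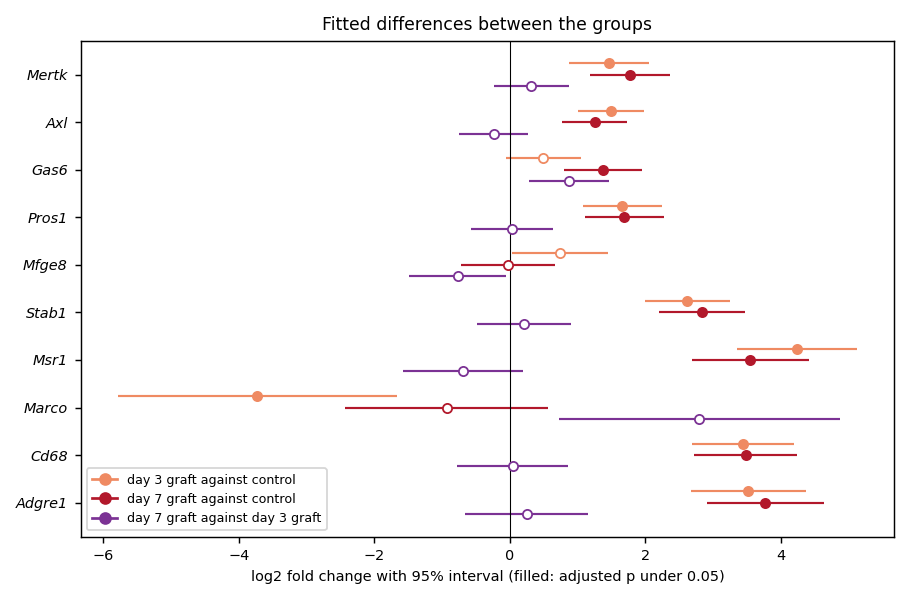
Log2 fold changes of the 10 genes with 95% intervals from the fit on counts, for day 3 graft against control, day 7 graft against control and day 7 graft against day 3 graft; filled points have an adjusted p under 0.05. Msr1, Cd68 and Adgre1 lie above 3 in both graft groups against control, Marco lies below 0 at day 3, and no day 7 against day 3 point is filled.

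Among the bridging ligands, Gas6 passed only at day 7, Pros1 passed at both times and Mfge8 at neither. Gas6 (ENSMUSG00000031451, mm10 chr8:13465374-13494490, minus strand), the ligand that activates all TAM receptors, had 217.5, 305.4, 201.1, 270.7 and 338.6 CPM in day 7 grafts, 252.1, 163.4, 112.9, 93.91 and 133.7 CPM in day 3 grafts, and 91.35, 81.97, 70.49, 139.9 and 144.3 CPM in controls. All day 7 grafts lay above all controls, whereas 3 of the 5 day 3 grafts lay within the range of the controls and day 3 graft 1 lay among the day 7 grafts. The log2 fold change was 1.37 ± 0.27 (SE) at day 7 against control (adjusted p = 0.000506, limma) and 0.49 ± 0.26 at day 3 against control (adjusted p = 0.113, limma). Day 7 exceeded day 3 by 0.88 ± 0.28 (adjusted p = 0.0826, limma), and without day 3 graft 1 this difference was 1.09 (adjusted p = 0.0263, limma).

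Pros1 (ENSMUSG00000022912, mm10 chr16:62854307-62929346, plus strand) encodes protein S, which is also an anticoagulant cofactor and binds Mertk and Tyro3. It had 186.4, 177.5, 179.3, 181.4 and 266.6 CPM in day 7 grafts, 177.4, 224.6, 147.9, 231.3 and 192.9 CPM in day 3 grafts, and 49.42, 45.89, 38.18, 74.61 and 126.4 CPM in controls. Both graft groups lay wholly above the controls, and 4 of the 5 day 7 grafts sat between 177.5 and 186.4 CPM, with day 7 graft 5 apart. Its log2 fold change was 1.69 ± 0.27 at day 7 (adjusted p = 9.55e-05, limma) and 1.66 ± 0.27 at day 3 (adjusted p = 0.000113, limma), and the times differed by 0.03 (95% interval -0.58 to 0.64).

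Mfge8 (ENSMUSG00000030605, mm10 chr7:79133768-79149060, minus strand) was the member with the most RNA per length in controls. It had 166.7, 196.6, 193.1, 246.6 and 214.3 CPM in day 7 grafts, 121.2, 533.0, 437.1, 509.9 and 342.3 CPM in day 3 grafts, and 224.4, 212.9, 330.7, 144.8 and 162.8 CPM in controls. All day 7 values lay inside the range of the controls, while 4 day 3 grafts lay above every control and day 3 graft 1 below every control. The log2 fold change was -0.03 at day 7 against control (95% interval -0.72 to 0.66), and the TPM scale gave 0.36. At day 3 it was 0.74 ± 0.33 (adjusted p = 0.068, limma), and without day 3 graft 1 it was 1.12 (adjusted p = 0.000854, limma). Day 7 against day 3 gave -0.77 ± 0.34 (adjusted p = 0.216, limma) with that library and -1.15 (adjusted p = 0.0142, limma) without it. Control 3, the highest control for Mfge8, also had the highest B and T cell marker scores of the controls (8.34 and 6.44). Control 4, the lowest for Mfge8, had the lowest (4.75 and 2.10). Control 5, at 162.8 CPM, had a B cell score of 7.62, beside 7.63 in control 2 at 212.9 CPM. At the extremes of the day 3 grafts the B cell score ran the other way. Day 3 graft 1, the lowest for Mfge8, had the highest score (1.09). Day 3 grafts 2 and 4, the highest for Mfge8, had the lowest (0.789 and 0.583). Day 7 graft 1 was the lowest of its group for both (score 1.17). Day 7 graft 4, the highest for Mfge8, had 1.44 against 2.18 in day 7 graft 5. The part of lymphoid tissue in the Mfge8 values was not tested.

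Both TAM receptors of the list rose in the grafts. Mertk (ENSMUSG00000014361, mm10 chr2:128698956-128802894, plus strand), the TAM receptor best known for clearance by macrophages, had 68.83, 70.9, 83.61, 67.07 and 152.4 CPM in day 7 grafts, 79.41, 66.47, 75.77, 61.93 and 56.26 CPM in day 3 grafts, and 22.67, 18.22, 16.27, 25.85 and 49.14 CPM in controls. Every graft lay above every control, and day 7 graft 5 stood apart as the highest. Its log2 fold change was 1.78 ± 0.28 at day 7 (adjusted p = 7.38e-05, limma), 1.56 without day 7 graft 5, and 1.46 ± 0.28 at day 3 (adjusted p = 0.000374, limma).

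Axl (ENSMUSG00000002602, mm10 chr7:25757273-25788705, minus strand), a TAM receptor that binds Gas6 and is found on stromal and endothelial cells as well as on phagocytes, had 248.7, 305.1, 311.6, 315.0 and 357.6 CPM in day 7 grafts, 413.6, 334.2, 293.1, 327.9 and 465.5 CPM in day 3 grafts, and 103.0, 117.2, 81.78, 174.8 and 203.7 CPM in controls. The graft groups overlapped each other and neither overlapped the controls. Axl stood 1.25 ± 0.22 higher on the log2 scale at day 7 (adjusted p = 0.000235, limma) and 1.49 ± 0.23 higher at day 3 (adjusted p = 5.84e-05, limma). Tyro3, the remaining TAM receptor, was far scarcer, at 8.72 ± 1.34 CPM in day 7 grafts, 4.94 ± 1.2 CPM in day 3 grafts and 2.28 ± 0.652 CPM in controls (SD, n = 5 each). It was the TAM receptor that passed between the times, with a log2 fold change of 0.84 ± 0.20 at day 7 against day 3 (adjusted p = 0.026, limma), and it was also higher than in control at day 7 (1.99 ± 0.24, adjusted p = 6.96e-06, limma) and at day 3 (1.15 ± 0.25, adjusted p = 0.00133, limma). The Tyro3 difference between the times missed the threshold in 9 of 26 alternative fits, with adjusted p up to 0.0781 (limma): with library totals, without a filter, with a replicate block, on the TPM scale, and without day 3 graft 3 or 4 or day 7 graft 2, 3 or 4. Both differences from control passed in all 26.

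**Figure D2:**
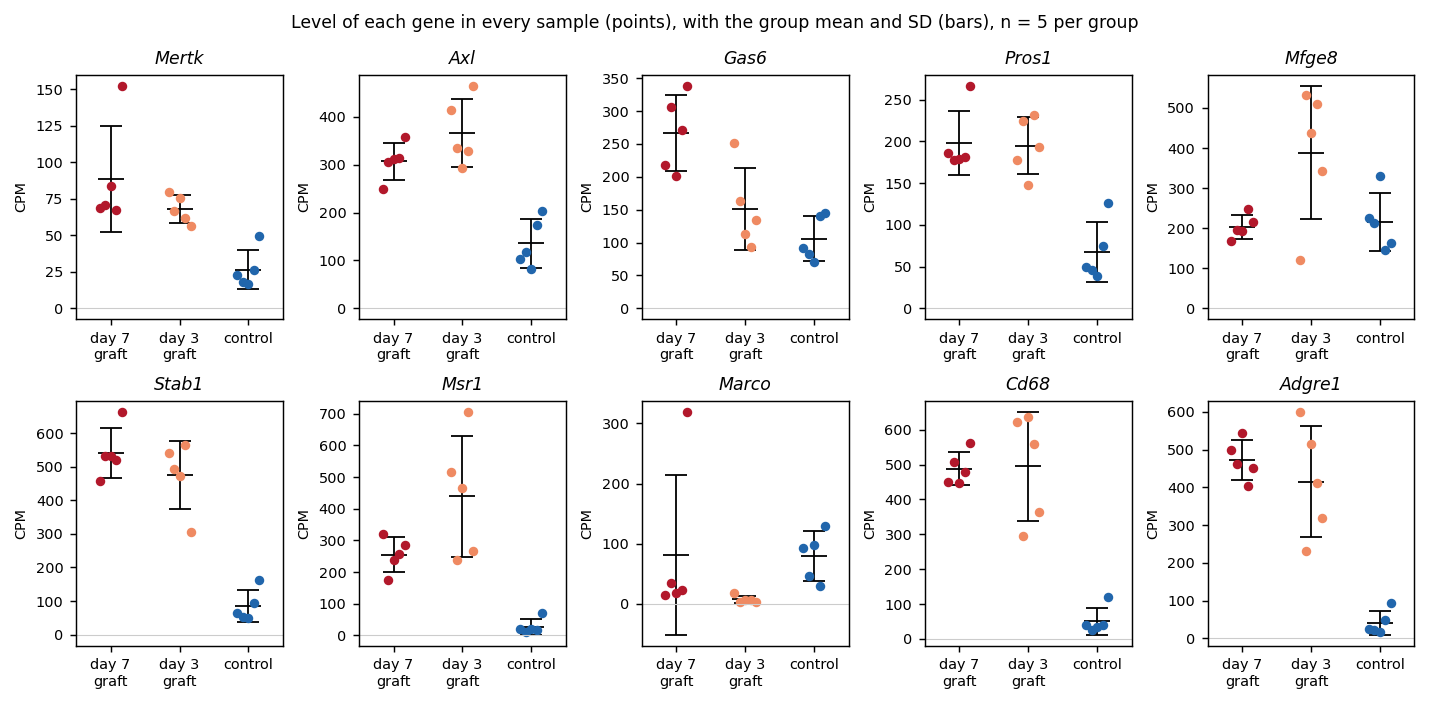
CPM of each of the 10 genes in every sample (points) by group, with group mean and SD (bars, n = 5). Day 7 graft 5 stands alone for Mertk, Pros1 and Marco, control 5 is the highest control for Msr1 and Cd68, and the day 3 grafts spread widest for Mfge8 and Msr1.

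The 3 scavenger receptors parted ways. Stab1 (ENSMUSG00000042286, mm10 chr14:31139013-31168641, minus strand), stabilin-1, binds phosphatidylserine and modified lipoproteins on macrophages and sinusoidal endothelium. It had 459.0, 533.2, 532.1, 521.2 and 663.5 CPM in day 7 grafts, 540.3, 494.5, 472.2, 565.9 and 306.0 CPM in day 3 grafts, and 62.92, 52.21, 49.7, 92.84 and 162.8 CPM in controls. The lowest graft was well above the highest control. Stab1 rose by 2.83 ± 0.30 on the log2 scale at day 7 (adjusted p = 2.2e-06, limma) and 2.62 ± 0.29 at day 3 (adjusted p = 4.35e-06, limma). Its locus overlaps Nt5dc2 on the opposite strand, whose mean count was 11% of that of Stab1, and the sources used here do not say whether counting used strand. The like overlap of Gas6 with Tmem255b amounted to 0.333%.

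Msr1 (ENSMUSG00000025044, mm10 chr8:39581685-39642673, minus strand), the class A macrophage scavenger receptor for modified lipoproteins, had the largest fold change of the 10 genes at day 3. It had 319.9, 175.3, 237.3, 258.4 and 286.5 CPM in day 7 grafts, 514.9, 239.5, 466.9, 705.7 and 268.1 CPM in day 3 grafts, and 18.69, 11.08, 18.89, 15.62 and 69.21 CPM in controls. Day 3 grafts 1, 3 and 4 lay above every day 7 graft, and control 5 was the highest control by a wide gap. The log2 fold change was 3.55 ± 0.41 at day 7 (11.7-fold, adjusted p = 4.61e-06, limma) and 4.24 ± 0.42 at day 3 (18.9-fold, adjusted p = 1.41e-06, limma). Between the times it was -0.69 ± 0.41 (adjusted p = 0.381, limma).

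Marco (ENSMUSG00000026390, mm10 chr1:120474538-120505024, minus strand), a class A receptor that binds bacteria and particles on macrophages of lung, spleen and lymph nodes, went the other way. It had 14.37, 34.78, 17.22, 22.58 and 319.2 CPM in day 7 grafts, 18.21, 3.38, 6.075, 5.437 and 2.018 CPM in day 3 grafts, and 93.08, 46.12, 98.5, 28.63 and 130.1 CPM in controls. All day 3 grafts lay below all controls, and 3 day 7 grafts lay below every control and day 7 graft 5 above every one. Marco fell by 3.73 ± 0.97 on the log2 scale at day 3 (13.2-fold lower, adjusted p = 0.0041, limma).

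At day 7 the Marco difference from control was -0.93 ± 0.71 (adjusted p = 0.264, limma) with all libraries and -1.72 (adjusted p = 0.00607, limma) without day 7 graft 5. Day 7 against day 3 gave 2.79 ± 0.97 (adjusted p = 0.117, limma), and 2.44 (adjusted p = 0.029, limma) without day 7 graft 5 and day 3 graft 1. Day 7 graft 5 also had the highest B cell marker score of its group, 2.18 as a mean of log2(CPM + 1) against 1.17 to 1.44 in the other day 7 grafts. Its T cell score was the lowest of its group, 0.927 against 1.62 to 1.94. Control 4, the lowest control for Marco, had a B cell score of 4.75 against 7.62 to 8.34 in the other controls and a T cell score of 2.10 against 5.66 to 6.44. Control 5, the highest control for Marco, stood at the low end of both of these ranges (7.62 and 5.66). The part of lymphoid tissue in the Marco values was not tested.

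Cd68 and Adgre1, used as general markers of macrophages, rose to like levels at both times. Cd68 (ENSMUSG00000018774, mm10 chr11:69664213-69666153, minus strand), a lysosomal glycoprotein of phagocytes, had 449.3, 506.6, 446.5, 480.1 and 560.6 CPM in day 7 grafts, 621.2, 295.3, 636.6, 558.9 and 363.2 CPM in day 3 grafts, and 39.31, 25.18, 33.66, 38.78 and 119.5 CPM in controls. The day 7 grafts lay inside the wider range of the day 3 grafts, and control 5 was the highest control. Cd68 was 3.48 ± 0.35 higher on the log2 scale at day 7 (adjusted p = 1.72e-06, limma) and 3.44 ± 0.35 higher at day 3 (adjusted p = 2.02e-06, limma).

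Adgre1 (ENSMUSG00000004730, mm10 chr17:57358691-57483527, plus strand), an adhesion G protein-coupled receptor of mouse macrophages, had 500.2, 461.9, 544.1, 403.6 and 450.1 CPM in day 7 grafts, 599.9, 230.2, 516.3, 411.0 and 319.6 CPM in day 3 grafts, and 24.81, 22.57, 17.4, 49.43 and 93.78 CPM in controls. As for Cd68, the day 3 values spread around the day 7 values and no graft reached down to a control. The log2 fold change was 3.77 ± 0.40 at day 7 (13.7-fold, adjusted p = 2.52e-06, limma) and 3.52 ± 0.40 at day 3 (11.5-fold, adjusted p = 4.55e-06, limma). Day 3 graft 2, the lowest day 3 graft for Adgre1, Cd68 and Msr1, also had the lowest macrophage marker score of the grafts (8.0 against 8.44 to 9.0).

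Levels were set side by side between genes on the deposited TPM scale, which is per transcript length. The 10 genes together summed to 1922 to 2461 TPM in day 7 grafts, 1745 to 2432 TPM in day 3 grafts and 276.8 to 754.1 TPM in controls. Cd68 led in both graft groups, with 774 ± 58.5 TPM and 35.7% of the sum at day 7 and 722 ± 216 TPM and 33.6% at day 3 (SD, n = 5), and no sample of it overlapped the next gene. In controls Mfge8 led with 146 ± 72.5 TPM and 31.1% of the sum, ahead of Cd68 at 63.6 ± 51.6 TPM, and each gene overlapped its neighbour in the order.

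At day 7 the order went on with Stab1 (283 TPM) and Adgre1 (271 TPM), which overlapped each other and no sample of Mfge8 (172 TPM), then Msr1 (171 TPM), Gas6 (170 TPM), Axl (131 TPM), Pros1 (95.1 TPM), Marco (68.6 TPM) and Mertk (33.2 TPM), each overlapping its neighbour. Without day 7 graft 5 the day 7 means were 21.5 ± 8.69 TPM for Marco and 28.3 ± 2.95 TPM for Mertk (SD, n = 4), which puts Marco last. At day 3 it went on with Mfge8 (302 TPM), Stab1 (280 TPM), Msr1 (271 TPM), Adgre1 (222 TPM), Axl (144 TPM), Gas6 (91.3 TPM) and Pros1 (88.1 TPM), each overlapping its neighbour, while Mertk (25.1 TPM) and Marco (5.91 TPM) were set apart. Marco was the third most abundant of the 10 in controls (56.9 TPM) and the last at day 3.

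How members of like role shifted against each other was tested as a log2 ratio of TPM + 1 within each sample, for 4 pairs and 3 comparisons (two-sided exact permutation test, 5 against 5, smallest possible p 0.00794, adjusted over 12 tests). The class A receptors traded places in the group means and in every graft but day 7 graft 5 (log2 ratio -0.42). Msr1 over Marco was 2.27 ± 1.69 in day 7 grafts, 5.47 ± 0.78 in day 3 grafts and -2.17 ± 0.70 in controls (SD, n = 5), with no overlap between any of the groups. The differences were 4.44 at day 7 against control, 7.64 at day 3 against control and -3.2 at day 7 against day 3 (exact permutation, adjusted p = 0.0317 each), and they were 5.11, 7.64 and -2.53 without day 7 graft 5.

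Of the ligands, Gas6 over Pros1 was 0.82 ± 0.26 at day 7, -0.03 ± 0.64 at day 3 and 1.11 ± 0.29 in control. Day 3 was lower than control by a difference of -1.14 (exact permutation, adjusted p = 0.0476), with 4 of 5 day 3 grafts below every control and day 3 graft 1 within their range. Day 7 differed from day 3 by 0.85 (exact permutation, adjusted p = 0.0762) and from control by -0.29 (exact permutation, adjusted p = 0.19). Without day 3 graft 1 the day 7 to day 3 difference was 1.08 (exact permutation, adjusted p = 0.0238).

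The receptor pair and the marker pair did not pass in any comparison. Axl over Mertk was 1.99 ± 0.45 at day 7, 2.45 ± 0.37 at day 3 and 2.26 ± 0.31 in control (exact permutation, adjusted p of 0.19 to 0.442). Cd68 over Adgre1 was 1.52 ± 0.28 at day 7, 1.73 ± 0.16 at day 3 and 1.78 ± 0.51 in control (exact permutation, adjusted p of 0.274 to 0.825).

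**Figure D3:**
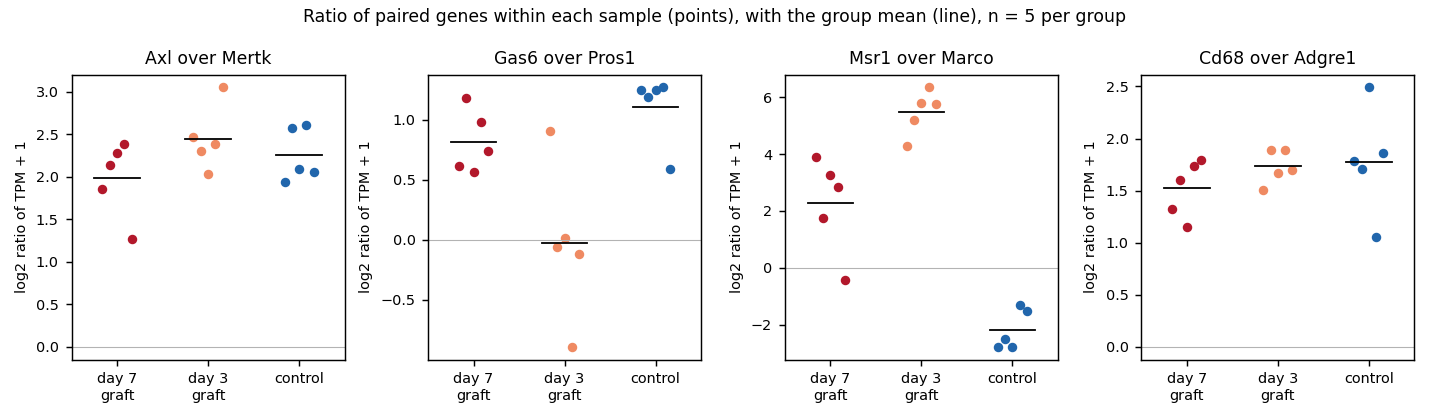
Log2 ratio of TPM + 1 for 4 pairs of genes in every sample (points), with the group mean (line, n = 5). Msr1 over Marco is above 4 in all day 3 grafts and below 0 in all controls and in day 7 graft 5. Gas6 over Pros1 is near 0 or below in 4 of 5 day 3 grafts.

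Because macrophage markers rose too, each gene was also set against them, as its log2(CPM + 1) minus the mean of that value over the 12 macrophage and monocyte markers of the same sample (two-sided exact permutation test, adjusted over 30 tests). The 12 markers share no gene with the 10. A difference of 0 between groups means that the gene moved as far as the mean of the markers did. Such a difference does not say which cells held the RNA. Most genes fell short of the markers: over all tested genes the median difference was -2.41 at day 7 and -2.46 at day 3 against control, and 91.3% and 91.8% of them were lower at an unadjusted exact permutation p of at most 0.0238, the largest that passed for the 10 genes, with 0.991% and 0.847% higher. Between day 7 and day 3, 2.64% were lower and 2.4% higher by the same limit. Msr1, Cd68 and Adgre1 rose more than the mean of the markers. At day 3 none of them rose more than every marker, and at day 7 Cd68 did not. At day 3 the markers ran from a log2 fold change of 0.72 (Laptm5) to 4.52 (Fcgr1). At day 7 they ran from 0.69 (Laptm5) to 3.49 (Itgam), beside 3.48 ± 0.35 for Cd68, 3.55 ± 0.41 for Msr1 and 3.77 ± 0.40 for Adgre1. Fcgr1 and Itgam (4.22) rose more at day 3 than Cd68 (3.44) and Adgre1 (3.52). At day 7 against control the differences were 1.06 for Msr1, 1.02 for Cd68 and 1.31 for Adgre1, and at day 3 1.74 for Msr1, 0.96 for Cd68 and 1.04 for Adgre1 (exact permutation, adjusted p = 0.017 each).

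The TAM receptors and the ligands moved less than the mean of the markers at both times, and each of these differences passed except that of Pros1 at day 3. At day 7 against control the differences were -1.19 for Axl, -1.07 for Gas6, -0.76 for Pros1 and -2.46 for Mfge8 (exact permutation, adjusted p = 0.017 each), and -0.69 for Mertk (exact permutation, adjusted p = 0.0376). At day 3 they were -1.02 for Mertk, -0.97 for Axl and -1.96 for Gas6 (exact permutation, adjusted p = 0.017 each) and -1.71 for Mfge8 (exact permutation, adjusted p = 0.0376). Pros1 did not pass at day 3 (-0.80, exact permutation, adjusted p = 0.068).

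Stab1 did not differ detectably from the markers at either time, with 0.38 at day 7 (exact permutation, adjusted p = 0.114) and 0.15 at day 3 (exact permutation, adjusted p = 0.604). Marco was the farthest below them, by -3.33 at day 7 (exact permutation, adjusted p = 0.028) and -5.89 at day 3 (exact permutation, adjusted p = 0.017). Between day 7 and day 3, Msr1 was lower against the markers (-0.67) and Marco higher (2.55), each with an adjusted p of 0.028 in the exact permutation test. The yardstick matters: set against Csf1r alone, the receptor for colony-stimulating factor, the day 3 differences from control were -0.76 for Mfge8 (exact permutation, adjusted p = 0.393), -0.07 for Mertk (exact permutation, adjusted p = 0.698), -0.02 for Axl (exact permutation, adjusted p = 0.944) and 1.10 for Stab1 (exact permutation, adjusted p = 0.0159). With it, the day 7 differences were -0.16 for Mertk, -0.23 for Pros1 and -2.80 for Marco, none of which passed, and 0.91 for Stab1 (exact permutation, adjusted p = 0.0159).

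**Figure D4:**
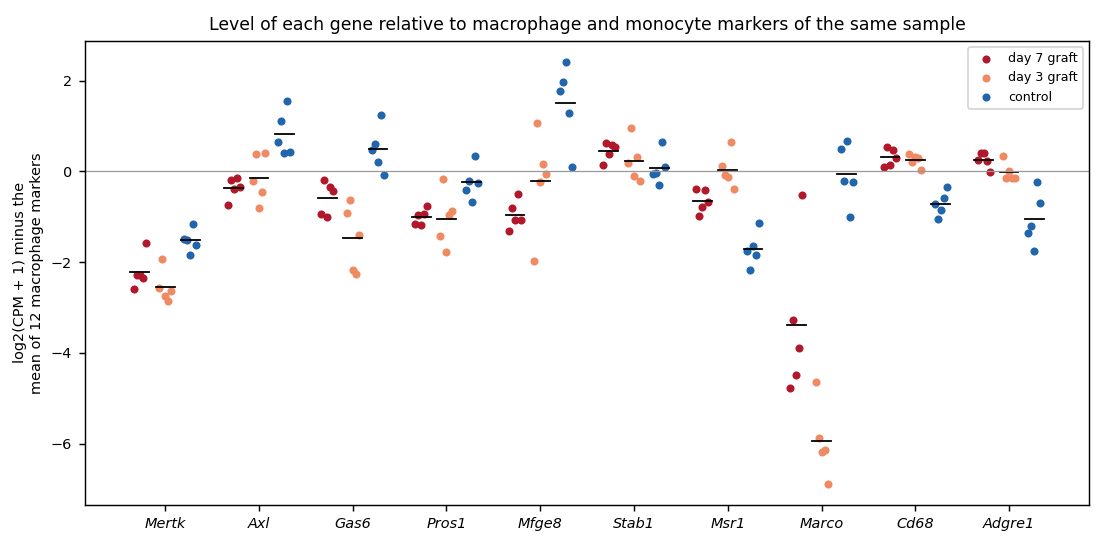
Log2(CPM + 1) of each gene minus the mean over 12 macrophage and monocyte markers of the same sample; points are samples, lines are group means (n = 5), and groups run day 7 graft, day 3 graft, control within each gene. Msr1, Cd68 and Adgre1 sit higher in grafts than in controls, Mertk, Axl, Gas6 and Mfge8 mostly lower, and Marco far lower.

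The other genes of the pathway were described by 6 lists, set beside the shares of all genes given above. Of 17 tested bridging molecules and phosphatidylserine receptors, 14 rose and 3 fell at day 7, and 13 rose and 3 fell at day 3 (median log2 fold change 1.99 and 1.74). Trem2, a lipid-binding receptor of macrophages, was at 159 ± 27.7 CPM in day 7 grafts, 122 ± 27.1 CPM in day 3 grafts and 4.69 ± 5.43 CPM in controls. Its log2 fold change was 5.60 ± 0.40 at day 7 (adjusted p = 1.26e-07, limma) and 5.20 ± 0.40 at day 3 (adjusted p = 2.68e-07, limma).

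Thbs1, thrombospondin, which bridges dying cells to macrophages, had 930 ± 376 CPM at day 7, 638 ± 251.6 CPM at day 3 and 41.6 ± 58.1 CPM in control (5.12 ± 0.62 and 4.61 ± 0.60 on the log2 scale, adjusted p = 7.07e-06 and 1.57e-05, limma). Timd4, a phosphatidylserine receptor of resident macrophages, fell, with 1.06 ± 1.31 CPM in day 7 grafts, 1.90 ± 0.845 CPM in day 3 grafts and 48.6 ± 15.4 CPM in controls. Its log2 fold change was -6.22 ± 0.63 at day 7 (adjusted p = 1.74e-06, limma) and -4.74 ± 0.50 at day 3 (adjusted p = 2.37e-06, limma).

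Of 10 genes for the display of dying cells and for signals that hold phagocytes back, 7 rose and 2 fell at day 7, and 5 rose and 2 fell at day 3 (median 0.996 and 0.698). Anxa1, annexin A1, exposed by dying cells and made by myeloid cells, had 798 ± 60.2 CPM at day 7, 767 ± 91.4 CPM at day 3 and 170 ± 87.1 CPM in control (2.39 ± 0.30 and 2.33 ± 0.30, adjusted p = 1.1e-05 and 1.42e-05, limma). Sirpa, the phagocyte receptor for the inhibitory signal Cd47, had 532 ± 118 CPM at day 7, 591 ± 71.6 CPM at day 3 and 124 ± 40.8 CPM in control (2.12 ± 0.21 and 2.30 ± 0.21, adjusted p = 1.3e-06 and 8.15e-07, limma). Cd24a, a surface glycoprotein known in human cells as a signal against engulfment, fell by 1.67 ± 0.45 at day 7 and by 1.3 ± 0.44 at day 3 (adjusted p = 0.00478 and 0.0182, limma), and on the TPM scale the day 3 call was lost (adjusted p = 0.108, limma).

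Of 16 genes for engulfment and digestion, 9 rose and 2 fell at day 7, and 10 rose and 3 fell at day 3 (median 0.72 and 0.755). The strongest was Atp6v0d2, a subunit of the proton pump of lysosomes, with 52.2 ± 26.2 CPM at day 7, 15.1 ± 6.74 CPM at day 3 and 2.22 ± 2.68 CPM in control. It rose against control (4.96 ± 0.77 at day 7 and 3.2 ± 0.80 at day 3, adjusted p = 7.36e-05 and 0.00314, limma) and between day 7 and day 3 (1.76 ± 0.44, adjusted p = 0.0341, limma). Dnase2a, the lysosomal nuclease, rose by 1.32 ± 0.16 at day 7 and by 1.23 ± 0.15 at day 3 (adjusted p = 6.1e-06 and 1.2e-05, limma), and Elmo2, an adaptor of the engulfment signal, by 1.00 ± 0.13 and 1.26 ± 0.13 (adjusted p = 1.48e-05 and 2.4e-06, limma). Mfn2, a mitochondrial fusion protein, fell by 1.71 ± 0.20 at day 7 and by 1.35 ± 0.20 at day 3 (adjusted p = 4.58e-06 and 3.98e-05, limma). Rubcn, needed for phagocytosis assisted by autophagy proteins, fell by 0.35 ± 0.13 at day 7 and by 0.33 ± 0.13 at day 3 (adjusted p = 0.0319 and 0.0401, limma). The adaptor Gulp1 fell by 0.95 ± 0.39 at day 3 (adjusted p = 0.0494, limma) and differed by -0.74 ± 0.38 at day 7 (adjusted p = 0.106, limma). Of 26 alternative fits, the call was lost in 13 for Gulp1 at day 3, in 11 for Rubcn at day 7, in 14 for Rubcn at day 3 and in 10 for Atp6v0d2 between the times (adjusted p up to 0.218, 0.939, 0.725 and 0.102, limma). The 3 genes that fell at day 3 became 2 with library totals or with only the groups compared, and 1 without a filter. Without day 7 graft 5 and day 3 graft 1, 1 gene of this list fell at day 7 and 2 at day 3.

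Of 12 genes for lipid handling after engulfment, 4 rose and 2 fell at day 7, and 6 rose and 3 fell at day 3 (median 0.31 and 0.444). Lipa, the lysosomal acid lipase, had 523 ± 124 CPM at day 7, 343 ± 89.5 CPM at day 3 and 74.6 ± 16 CPM in control (2.81 ± 0.20 and 2.19 ± 0.19, adjusted p = 1.06e-07 and 6.06e-07, limma). Soat1, which esterifies cholesterol, rose by 2.42 ± 0.30 at day 7 and by 2.24 ± 0.30 at day 3 (adjusted p = 9.95e-06 and 1.98e-05, limma). Nr1h3, the sterol-sensing nuclear receptor LXR alpha, fell by 1.62 ± 0.19 at day 7 and by 0.98 ± 0.18 at day 3 (adjusted p = 5.21e-06 and 0.000365, limma), and its partner Rxra fell by 0.68 ± 0.18 at day 7 and by 0.75 ± 0.18 at day 3 (adjusted p = 0.00489 and 0.00261, limma). On the TPM scale the day 7 call of Rxra was lost (adjusted p = 0.0552, limma). Apoe, a lipid carrier, fell by 0.76 ± 0.23 at day 3 against control (adjusted p = 0.0097, limma) and was higher at day 7 than at day 3, at 1829 ± 752 against 927 ± 155 CPM (0.91 ± 0.23, adjusted p = 0.0368, limma), a call between the times that 10 of 26 alternative fits lost (adjusted p up to 0.0964, limma).

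Of 14 other scavenger receptors, 9 rose and 1 fell at day 7, and 8 rose and 2 fell at day 3 (median 1.04 and 0.941). Mrc1, the mannose receptor, had 1082 ± 566 CPM at day 7, 1186 ± 411 CPM at day 3 and 166 ± 138 CPM in control (2.93 ± 0.47 and 3.11 ± 0.47, adjusted p = 9.14e-05 and 6.03e-05, limma). Cd5l, a secreted scavenger protein of macrophages, rose by 1.95 ± 0.60 at day 7 and by 3.10 ± 0.63 at day 3 (adjusted p = 0.0119 and 0.000675, limma). Scarf2 had 19.3 ± 4.70 CPM at day 7, 5.87 ± 1.73 CPM at day 3 and 2.98 ± 0.339 CPM in control, and it rose at day 7 against control (2.66 ± 0.26, adjusted p = 1.27e-06, limma) and against day 3 (1.71 ± 0.21, adjusted p = 0.00107, limma). Scarb1, the receptor for high-density lipoprotein, fell by 0.53 ± 0.18 at day 7 and by 0.51 ± 0.18 at day 3 (adjusted p = 0.0199 and 0.0245, limma), and each call was lost in 4 of 26 alternative fits (adjusted p up to 0.526 and 0.288, limma). Without day 7 graft 5 and day 3 graft 1, no gene of this list fell at day 3 and 8 rose.

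Of 5 genes for receptor shedding, which cuts receptors such as Mertk and Axl from the cell surface, 4 rose and none fell at either time (median 1.23 and 1.41). Adam8, a metalloprotease of myeloid cells, had 532 ± 146 CPM at day 7, 463 ± 207 CPM at day 3 and 30.5 ± 27.7 CPM in control (4.51 ± 0.49 and 4.22 ± 0.48, adjusted p = 2.8e-06 and 4.9e-06, limma). Adam9, another metalloprotease, rose by 1.57 ± 0.26 at day 7 and by 1.61 ± 0.26 at day 3 (adjusted p = 0.00013 and 0.000108, limma). RNA levels carry no measure of shedding itself. Between day 7 and day 3, 1 gene rose in each of the other 5 lists and none fell, against 3.18% of all tested genes higher and 1.71% lower. They were Tyro3, Atp6v0d2, Apoe, Scarf2 and, chosen after its values were seen, the find-me chemokine Cx3cl1, at 8.95 ± 2.41 CPM in day 7 grafts and 3.07 ± 0.727 CPM in day 3 grafts (1.51 ± 0.26, adjusted p = 0.00633, limma). The calls of Scarf2 and Cx3cl1 between the times held in all 26 alternative fits, and those of Tyro3, Atp6v0d2 and Apoe did not. With a replicate block no gene rose in the lists of phosphatidylserine receptors, engulfment and lipid handling. With only the 2 groups in the fit, genes also fell, 3 in lipid handling, 1 in engulfment and 1 in the list with Cx3cl1. Without day 7 graft 5 and day 3 graft 1, 2 genes rose in the list of phosphatidylserine receptors and 2 in the list of lipid handling.

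The genes whose pattern was most like each member were found by the root mean square difference of centred log2(CPM + 1) over the 15 samples, among 10580 genes. This is a description that the graft to control difference dominates. The closest to Mertk were Cyth3 (0.165), Frmd4b (0.19) and the complement gene C1qc (0.202), and the closest to Stab1 were Akr1b8 (0.159), Snx24 (0.216) and the lysosomal protease Ctsl (0.221). Cd68 was closest to the lysosomal metal transporter Slc11a1 (0.153) and the protease Lgmn (0.175), and both it and Adgre1 had Clec4a2 and Slc11a1 among their nearest 3. Msr1 had Dpep2 (0.304) and the integrin Itgam (0.314) among its nearest 3.

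The ligands and Axl had other neighbours, with Epdr1 (0.193), Pgm3 (0.212) and Ssr3 (0.218) for Axl, Pam (0.187), Rnd3 (0.201) and Lhfp (0.202) for Pros1, and the metalloprotease inhibitor Timp2 (0.267), Reps2 (0.292) and Abca9 (0.296) for Gas6. Mfge8 (Pold4, Icam2 and Prag1, 0.358 to 0.405) and Marco (C6, Jaml and Cd209d, 1.19 to 1.23) had no close neighbour, beside a spread of their own of 0.634 and 1.86. No member was among the nearest 3 of another member.

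The annotation in the matrix shows what the genes share beyond the list. The gene ontology term for apoptotic cell clearance was attached to 5 of the 10 (Mertk, Axl, Gas6, Mfge8 and Marco), out of 22 genes with it in the matrix. Mertk and Axl share tyrosine kinase and fibronectin domains, Gas6 and Pros1 share the vitamin K dependent Gla domain and a laminin G domain, and Msr1 and Marco share a collagen-like stalk and a scavenger receptor cysteine-rich domain.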

How the data were processed

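Libraries of 15 adipose samples came from a stranded mRNA kit and were read in pairs of 151 bp, as the labels' protocols state. Tools named by the submitters' processing notes, without roles, are RSEM 1.3.1, STAR 2.7.1a and cutadapt 2.8, with the build mm10. The sources used here name no annotation release. Per gene and sample the authors deposited 3 values (TPM, RPKM and estimated count), in 45 columns that were all mapped to samples. The deposited estimated counts are whole numbers with digit separators and no scaling, per the file headers and values. The deposited RPKM values, scaled for gene length and library size, served in an alternative only, and the deposited TPM values served for levels between genes and for pair ratios.

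Counts were fitted with limma-voom (limma 3.58.1, R 4.3.3), with all 15 samples in 1 fit of 3 group means and trimmed-mean library sizes (factors 0.746 to 1.138). Genes needed 0.3894 CPM, which is 10 counts at the median library, in at least 5 samples and 15 counts in all. With the separators the columns were recorded as other than plain counts, so limma-voom was used on the parsed values and no quasi-likelihood count test was run. Calls used an adjusted p under 0.05. CPM uses scaled library sizes. Deviations of samples with the same number had correlations of -0.183 to 0.341, with 5 of 15 over 0.1. Whether such samples deviate together was not tested, and no block entered the main fit.

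The 10 genes, the 6 pathway lists and the 9 marker lists were chosen with earlier results of these data known. All 10 genes are named. Of each pathway list, up to 2 called genes per direction and comparison with the largest fold change and at least 10 CPM in 1 group are named, and Tyro3 always. The results of some single genes are left out and not reported here. No sequence is shown. Alternatives changed the scaling, the filter, the groups fitted together, the weights, a replicate block, the scale, the yardstick and the pseudocount (1 on CPM and TPM), and left out each sample in turn.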

Additional observations from a re-analysis of the deposited data

Results flagged for a closer look

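In 6 of the 30 groups of 5 values examined, 1 sample stood apart by Dixon's criterion, where the gap to its nearest neighbour exceeds 0.71 of the whole range. Chance alone gives about 1 in 20 for independent groups of normally distributed values. The groups here share libraries and hold CPM without a log, so that rate is only a rough guide. In day 7 graft 5, Marco was at 319.2 CPM against 14.37 to 34.78 CPM in the other day 7 grafts (gap 0.933 of the range), Pros1 at 266.6 against 177.5 to 186.4 CPM (0.9) and Mertk at 152.4 against 67.07 to 83.61 CPM (0.806). In day 3 graft 1, Marco was at 18.21 CPM against 2.018 to 6.075 CPM (0.749). In control 5, Msr1 was at 69.21 against 11.08 to 18.89 CPM (0.866) and Cd68 at 119.5 against 25.18 to 39.31 CPM (0.85). Control 5 also had the highest macrophage marker score of the controls (7.26 against 5.77 to 6.06) and the highest neutrophil score (4.12 against 1.43 to 1.83), and the part of these in its values was not tested.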

How the results depend on the processing

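Day 3 and day 7 against control kept their calls and directions for Mertk, Axl, Pros1, Stab1, Msr1, Cd68 and Adgre1 under all 26 alternatives to the fit on counts, as did Gas6 at day 7 and Marco at day 3. The number of the 10 genes called was 8 to 9 for both comparisons when any 1 sample was left out.

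Between day 7 and day 3, the 784 genes called overall became 1396 with only these groups in the fit, 3661 with sample quality weights, 1544 without day 7 graft 5 and day 3 graft 1, and 333 to 1513 without any 1 sample (highest without control 4, at 1513, and without day 7 graft 5, at 1501). Of the 10 genes, none was called in the main fit, 2 with weights, 1 on the TPM scale, 3 without those 2 libraries (Gas6 and Marco higher, Mfge8 lower) and 0 to 2 without any 1 sample (2 without day 3 graft 1, which are Gas6 and Mfge8). The cause was not tested.

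Calls near the threshold depended on settings. Gas6 at day 3 against control passed with weights (0.60, adjusted p = 0.02, limma), on the TPM scale (0.78, adjusted p = 0.0139, limma) and without day 3 graft 4 (0.66, adjusted p = 0.0459, limma). Mfge8 at day 3 also passed with weights (0.66), on the TPM scale (1.02) and without control 3 (0.90, adjusted p = 0.0315, limma). Marco at day 7 against control passed with weights (-1.58, adjusted p = 0.00437, limma).

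Differences near 0 changed sign, and the range after leaving out any 1 sample follows each. Mfge8 at day 7 against control gave 0.04 with library totals, 0.00 without a filter, 0.36 on the TPM scale, and 0.00, 0.14 and 0.04 without control 1, control 3 or day 7 graft 1 (range -0.21 to 0.14). Between day 7 and day 3, Pros1 gave -0.02 with weights and -0.07, -0.08 and -0.11 without day 3 graft 3, day 7 graft 5 or both day 7 graft 5 and day 3 graft 1 (range -0.08 to 0.09). Cd68 gave -0.06 with weights, and -0.13, -0.06 and -0.01 without day 3 graft 2, day 3 graft 5 or day 7 graft 5 (range -0.13 to 0.15). Cd68 over Adgre1 at day 3 against control gave 0.13 without control 3 and 0.01 without day 3 graft 1 (range -0.23 to 0.13).

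Against macrophage markers, 9, 8 and 2 genes passed (day 7 against control, day 3 against control, day 7 against day 3). Leaving out any 1 sample gave 8 to 9, 6 to 9 and 0 to 5, and for the pair ratios 0 to 2, 1 to 2 and 0 to 2; the smallest possible p then rises to 0.0159. On TPM, 1 passed at day 7 against day 3. Signs changed with Csf1r alone for Pros1 at day 3 against control (0.14) and at day 7 against day 3 for Mertk (-0.09), Pros1 (-0.37), Stab1 (-0.19), Cd68 (-0.36) and Adgre1 (-0.14). Of these, only Cd68 passed with Csf1r alone (exact permutation, adjusted p = 0.0159). The median of the markers turned Stab1 at day 3 (-0.07) and Pros1 at day 7 against day 3 (-0.01). On TPM, Stab1 gave -0.11 at day 7, -0.04 at day 3 and -0.07 between the times, and without day 3 graft 2 it gave -0.03 at day 3 (range -0.03 to 0.30). Pros1 between the times gave -0.05, -0.14 and -0.01 without day 3 graft 1, day 3 graft 3 or day 7 graft 5 (range -0.14 to 0.26).

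With a replicate block, the fit on counts called 8, 8 and 0 of the 10 genes and 9724, 9725 and 659 genes overall (day 7 against control, day 3 against control, day 7 against day 3). In the ratio tests the replicate block allowed no p under 0.0625, so 0 passed in each comparison, which says nothing of stability. Among the 10 genes the lowest value was 2.018 CPM, for Marco in 1 day 3 graft.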
